A study of Mus musculus with 4 samples.

Results

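The 10 genes described here encode enzymes of glycolysis, the pathway that splits glucose into pyruvate and, through lactate dehydrogenase, lactate. They are *Hk1*, *Hk2*, *Gpi1*, *Pfkl*, *Aldoa*, *Gapdh*, *Pgk1*, *Eno1*, *Pkm* and *Ldha*, and they were found by symbol among the 55401 gene identifiers of each count table. The symbols matched 11 identifiers, because *Aldoa* is listed under 2. RNA-seq covered B220+ B cells sorted from the spleen, with 2 libraries per genotype: NSD1 B WT (genotype Mb1-Cre+ NSD1+/+, called WT here) and NSD1 B KO (genotype Mb1-Cre+ NSD1fl/fl, called KO here). Both genotypes were on the C57BL/6J background and carried Mb1-Cre, which is expressed from the *Cd79a* (Mb1) locus from early B cell development on, and the controls were littermates. Mice of 7 to 9 weeks, male and female, were used, although the labels give neither the age nor the sex for a library. Neither the labels nor the methods say whether the 2 libraries of a genotype came from different mice or whether mice were pooled, so the p-values measure the spread between libraries, which may be technical.

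Glycolysis opens with hexokinase, which traps glucose in the cell as glucose 6-phosphate, and passes through phosphofructokinase, the main regulated step. The later part of the pathway, from glyceraldehyde phosphate dehydrogenase to pyruvate kinase, yields ATP, and lactate dehydrogenase restores the NAD+ that the pathway consumes. Resting B cells take up little glucose, while activation and germinal center entry raise glycolytic gene expression, in which the transcription factors MYC and HIF1A take part. Hexokinase, phosphofructokinase, aldolase, enolase, pyruvate kinase and lactate dehydrogenase each exist as isozymes from separate genes.

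Most of these genes were lower in KO. Of the 10, 7 fell (*Hk1*, *Hk2*, *Gpi1*, *Aldoa*, *Gapdh*, *Pgk1* and *Ldha*), 2 rose (*Pfkl* and *Pkm*), and *Eno1* was not past the threshold. The threshold was an adjusted p below 0.05 from edgeR's quasi-likelihood test and a fold change above 1.2. Differences were common in these libraries: of 11657 tested genes 78.2% passed the same threshold, 41.1% as lower and 37.1% as higher. Among the 7244 tested genes within the range of mean levels of the 10 genes (7.125 to 237.2 CPM, counts scaled to an equal library size by edgeR), 79.1% passed, 39.8% as lower and 39.4% as higher. A fold of 2 or more downward was reached by 3 of the 10 genes (*Hk2*, *Gpi1* and *Aldoa*), by 29.1% of all tested genes and by 23.7% of those within the level range. The median log2 fold change of KO over WT was -0.80 over the 10 genes, -0.10 over all tested genes and -0.02 over those within the level range. All 10 genes passed the filter on low counts and had counts in every library, and the second *Aldoa* identifier, ENSMUSG00000114515.2, had 0 counts in each. For each of the 10 genes the values of the genotypes did not overlap, which held for 88.1% of tested genes.

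The libraries held 6769118 to 7566834 counts on genes, and these were scaled to CPM with edgeR's TMM factors. The targeted gene *Nsd1* had 497 and 480 counts in WT and 284 and 280 in KO, and differed by -0.74 on the log2 scale (standard error 0.11, adjusted p = 8.08e-08, edgeR). These are counts over the whole of *Nsd1*, not over the deleted exons alone. Of 8 B cell markers 6 were lower in KO by the same edgeR threshold. *Ms4a1* fell from 2747 ± 32.7 to 1845 ± 122 CPM, *Cd79a* was 2.52-fold and *Pax5* 9.76-fold lower, and *Cd79b* was at 6825 ± 65.3 CPM in WT and 8159 ± 532 in KO, not past the threshold (mean ± SD, n = 2).

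**Figure D1:**
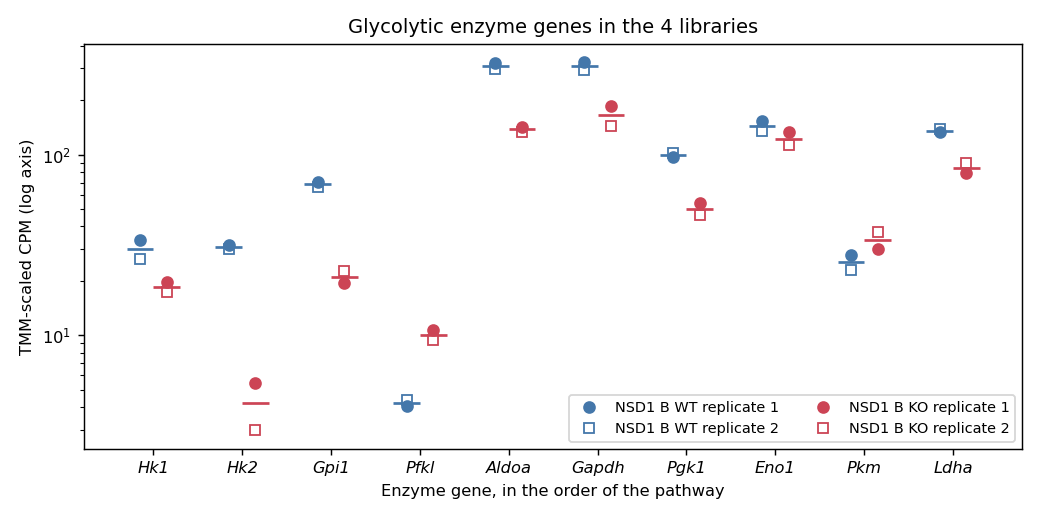
Level of each glycolytic enzyme gene in TMM-scaled CPM on a log axis, with WT in blue and KO in red, replicate 1 as filled circles, replicate 2 as open squares and the mean of each genotype as a line. The red points lie below the blue points for 8 genes and above them for *Pfkl* and *Pkm*, and *Hk2* shows the widest gap.

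Hexokinase gave the largest decrease. *Hk2* (ENSMUSG00000000628.10), the inducible hexokinase of activated and proliferating cells, had 226 and 218 counts in WT and 39 and 20 in KO. On the CPM scale this was 31.6 and 29.8 against 5.42 and 2.97. The KO libraries were far below both WT libraries, and they also differed from each other by 0.87 on the log2 scale. *Hk2* was 7.24-fold lower in KO (log2 fold change -2.86, standard error 0.23, adjusted p = 8.13e-16, edgeR). *Hk1* (ENSMUSG00000037012.18), the hexokinase used in most tissues, had 240 and 192 counts in WT and 141 and 116 in KO. It was 1.62-fold lower (log2 fold change -0.70, standard error 0.17, adjusted p = 0.000181). The 95% interval of the log2 fold change was -3.31 to -2.40 for *Hk2* and -1.03 to -0.36 for *Hk1*, and the intervals did not overlap. The decrease of *Hk1* was no longer past the threshold after correction for exon length and GC (-0.33, adjusted p = 0.0581, with 4.35e-05 to 0.0591 as the range of all refits).

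Counted per kilobase (kb) of exon, which allows genes to be compared, *Hk2* held 57.4% and 61.9% of the hexokinase level in the WT libraries and 28.3% and 19.8% in the KO libraries. By this measure *Hk1* made up the larger part in both KO libraries and the smaller part in both WT libraries. On counts not divided by length, *Hk1* was above *Hk2* in WT replicate 1 (240 against 226) and below it in WT replicate 2 (192 against 218). Both genes together gave 9.24 and 8.07 CPM per kb in WT and 3.21 and 2.52 in KO. The hexokinase genes *Hk3* and *Hkdc1* had 0 counts in all 4 libraries. Sums and shares are given as values, and no test was run on them. An exact permutation test could not have reached 0.05 with 2 libraries against 2.

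**Figure D2:**
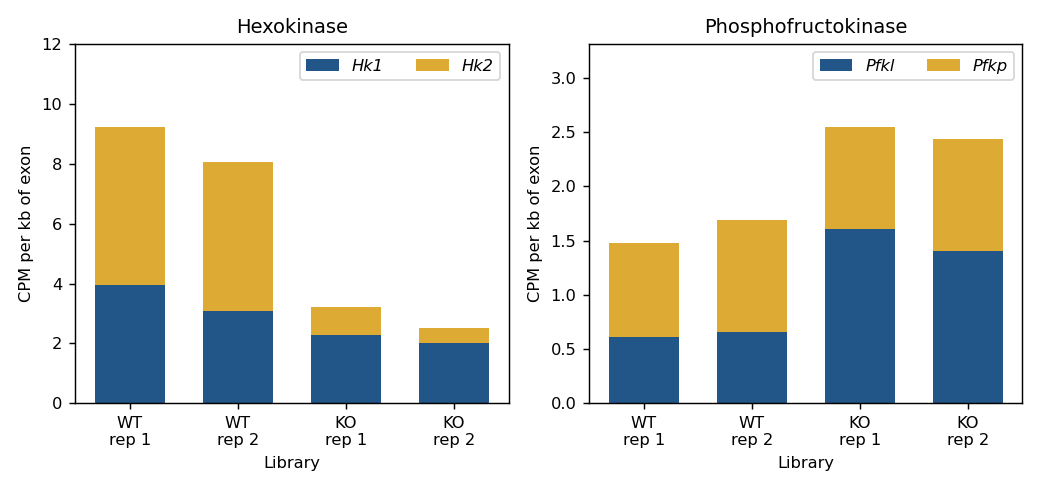
Level in CPM per kb of exon in each library, stacked for the hexokinase genes *Hk1* and *Hk2* and for the phosphofructokinase genes *Pfkl* and *Pfkp*. The hexokinase bars shrink in KO mainly through *Hk2*, and the phosphofructokinase bars grow through *Pfkl*.

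*Gpi1* (ENSMUSG00000036427.5) encodes glucose-6-phosphate isomerase, which turns glucose 6-phosphate into fructose 6-phosphate. It was counted 504 and 483 times in WT and 140 and 153 times in KO, or 70.5 and 66.1 against 19.5 and 22.7 CPM. The 2 libraries of each genotype were close to each other and far from those of the other genotype. *Gpi1* was 3.24-fold lower in KO (log2 fold change -1.70, standard error 0.13, adjusted p = 1.83e-16, edgeR).

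Phosphofructokinase moved the other way. *Pfkl* (ENSMUSG00000020277.10), the liver-type subunit, had 29 and 32 counts in WT and 77 and 63 in KO. Its level was 4.06 and 4.38 CPM in WT and 10.7 and 9.37 CPM in KO. In WT it was the least counted of the 10 genes, while in KO *Hk2* was. *Pfkl* was 2.38-fold higher in KO (a log2 difference of 1.25, standard error 0.29, adjusted p = 0.00015, edgeR). The platelet-type subunit *Pfkp* had 83 and 101 counts in WT and 91 and 93 in KO, a log2 difference of 0.06 (standard error 0.22, adjusted p = 0.819), and the muscle-type *Pfkm* had 0 counts throughout. Per kb of exon, *Pfkl* took 41.2% and 38.9% of the phosphofructokinase level in WT and 62.9% and 57.6% in KO. On counts alone, *Pfkp* stayed above *Pfkl* in both KO libraries (91 and 93 against 77 and 63). The larger share of *Pfkl* in KO thus rests on the exon lengths, 6675 nt for *Pfkl* and 13401 nt for *Pfkp*.

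*Aldoa* (ENSMUSG00000030695.16), the main aldolase outside the liver and brain, cleaves fructose bisphosphate into a pair of triose phosphates. It had 2289 and 2174 counts in WT and 1019 and 900 in KO. At 320.3 and 297 against 142 and 134 CPM the genotypes were well apart. Its 2.24-fold decrease (log2 fold change -1.16, standard error 0.08, adjusted p = 2.40e-17, edgeR) had the smallest adjusted p of the 10 genes. After correction for exon length and GC *Aldoa* was at -0.67 (adjusted p = 1.93e-08), less than 2-fold lower. *Aldoc*, the brain-type aldolase, had 0 counts in both WT libraries and 50 in each KO library. That is at least 34.6-fold higher, taking 3 counts over the WT libraries as the limit, which covers counting error only. Even so, *Aldoc* made up only 4.19% and 4.72% of the aldolase level per kb in KO. *Tpi1*, the triose phosphate isomerase that follows aldolase, fell from 53.6 ± 3.31 to 24.1 ± 0.88 CPM (log2 fold change -1.15, standard error 0.13, adjusted p = 7.55e-11), close to the value for *Aldoa*.

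*Gapdh* (ENSMUSG00000057666.18), glyceraldehyde-3-phosphate dehydrogenase and a common reference gene in PCR and blotting, was counted 2313 and 2161 times in WT and 1330 and 972 times in KO. It reached 324 and 296 CPM in WT against 185 and 145 CPM in KO, and the wider spread lay in KO. *Gapdh* was 1.88-fold lower in KO (log2 fold change -0.91, standard error 0.09, adjusted p = 8.80e-13, edgeR). *Pgk1* (ENSMUSG00000062070.12), the phosphoglycerate kinase that makes the first ATP of the pathway, had 691 and 746 counts in WT and 388 and 312 in KO. It was 1.98-fold lower (log2 fold change -0.99, standard error 0.10, adjusted p = 6.79e-12). *Pgam1*, the phosphoglycerate mutase of the next step, rose from 22.6 ± 0.32 to 34.7 ± 5.76 CPM (log2 fold change 0.62, standard error 0.15, adjusted p = 0.000278).

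*Eno1* (ENSMUSG00000063524.13), the enolase of most tissues, had 1097 and 990 counts in WT and 954 and 756 in KO, or 153.5 and 135 against 133 and 112 CPM. The lowest WT library and the highest KO library were nearly level. The log2 difference of -0.24 (standard error 0.09, adjusted p = 0.0179, edgeR) lay just inside the limit of 1.2-fold. Its direction depended on the processing, as *Eno1* came to 0.25 after correction for exon length and GC. *Eno3*, the muscle enolase, had 81 and 71 counts in WT and 70 and 75 in KO (log2 fold change -0.01, adjusted p = 0.963). *Eno2*, the neuronal form, had 2 counts in 1 WT library and 0 in the others.

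*Pkm* (ENSMUSG00000032294.17), the pyruvate kinase of most tissues outside the liver and red cells, had 198 and 168 counts in WT and 215 and 252 in KO. These are 27.7 and 23.0 against 29.9 and 37.5 CPM, so the gap between the genotypes was narrower than the spread within either. *Pkm* was 1.33-fold higher in KO (log2 fold change 0.41, standard error 0.15, adjusted p = 0.0133, edgeR). The call was lost without WT replicate 2 (0.30, adjusted p = 0.112) and without KO replicate 2 (0.24, adjusted p = 0.182), and with DESeq2 (adjusted p = 0.0995) and limma-voom (adjusted p = 0.0894), with 3.43e-08 to 0.182 as the range of all refits. After correction for exon length and GC *Pkm* was at 0.92 (adjusted p = 1.01e-06). The counts are per gene and do not separate the M1 and M2 forms of *Pkm*. *Pklr*, the pyruvate kinase of liver and red cells, had 0 counts in all 4 libraries.

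*Ldha* (ENSMUSG00000063229.15), the lactate dehydrogenase subunit that favors lactate formation, had 949 and 1009 counts in WT and 571 and 602 in KO. It was at 133 and 138 CPM in WT and at 79.4 and 89.5 CPM in KO, with little spread within a genotype. *Ldha* was 1.61-fold lower in KO (log2 fold change -0.68, standard error 0.09, adjusted p = 6.12e-09, edgeR). *Ldhb*, the heart-type subunit, had 0 counts in all 4 libraries.

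**Figure D3:**
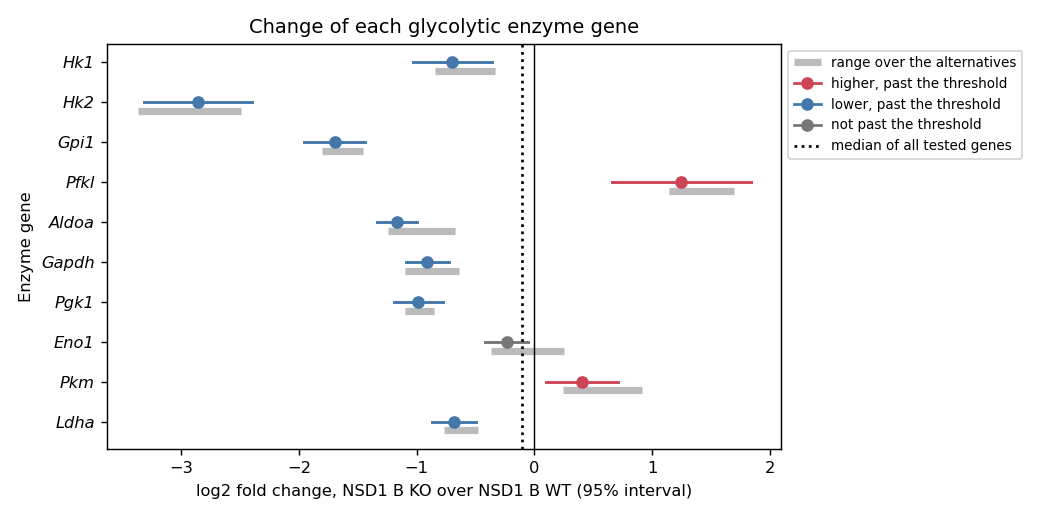
Log2 fold change of KO over WT for each glycolytic enzyme gene, with points for the edgeR estimate (blue lower, red higher, grey not past the threshold), thin lines for its 95% interval and grey bars for the range over the 17 alternatives. The bars of *Hk2*, *Gpi1*, *Aldoa*, *Gapdh*, *Pgk1*, *Ldha* and *Hk1* stay below 0, those of *Pfkl* and *Pkm* stay above 0, and the bar of *Eno1* crosses 0. The dotted line marks the median of all tested genes, -0.10.

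Summed over the 10 genes, the level was 1195 and 1118 CPM in WT and 677 and 616 CPM in KO, where the mean was 55.9% of that in WT. The makeup of the sum shifted with the unequal changes. *Eno1* supplied 12.8% and 12.1% of the sum in WT and 19.6% and 18.2% in KO, while *Aldoa* went from 26.8% and 26.6% to 20.9% and 21.7%. *Gapdh* supplied 27.1% and 26.4% in WT and 27.3% and 23.4% in KO, overlapping between the genotypes.

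Per kb of exon, *Aldoa* was the highest of the 10 genes in WT at 106 ± 5.57 CPM per kb, followed by *Gapdh* at 74.9 ± 4.80, *Pgk1* at 44.3 ± 1.69, *Ldha* at 40.9 ± 1.12 and *Eno1* at 26.9 ± 2.38 (mean ± SD, n = 2). *Gpi1* was at 10.6 ± 0.49, *Hk2* at 5.15 ± 0.21, *Pkm* at 5.07 ± 0.67, *Hk1* at 3.51 ± 0.61 and *Pfkl* at 0.63 ± 0.03 CPM per kb, where *Hk2* and *Pkm* overlapped. In KO *Aldoa* and *Gapdh* stayed at the top with 47.3 ± 1.90 and 39.8 ± 6.90 CPM per kb. *Ldha*, *Eno1* and *Pgk1* followed at 25.5 ± 2.17, 22.8 ± 2.66 and 22.4 ± 2.38, and their libraries overlapped. *Hk2* went from the seventh place in WT to the last in KO, at 0.70 ± 0.29 CPM per kb, below *Pfkl* at 1.503 ± 0.14. Exon length here is the union of all annotated transcripts, so genes with many long alternative transcripts, such as *Gapdh*, are understated.

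**Figure D4:**
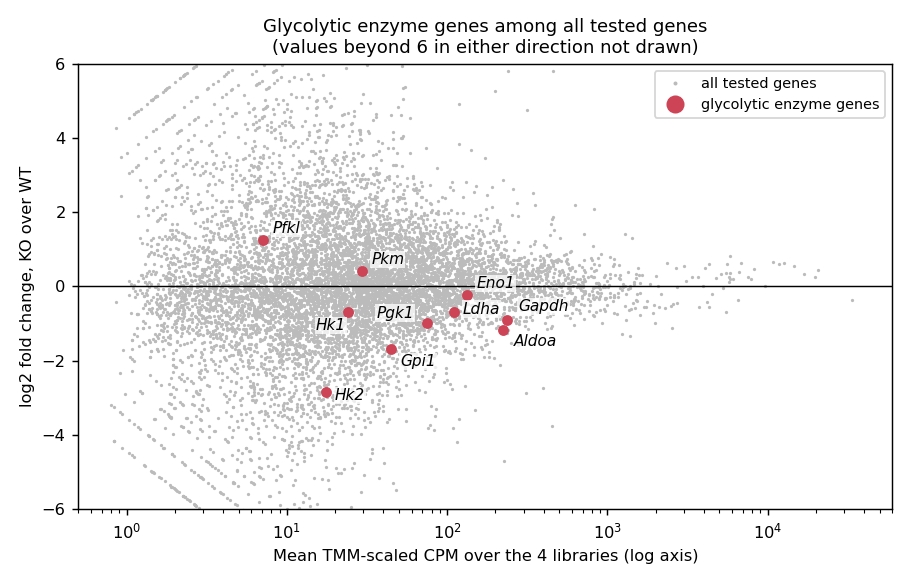
Mean TMM-scaled CPM over the 4 libraries (log axis) against the log2 fold change of KO over WT, with each tested gene in grey and the 10 glycolytic enzyme genes in red and named. The grey cloud reaches far in both directions, and 2424 tested genes lie beyond 6 and are not drawn. The red points of *Aldoa* and *Gapdh* are at the right, at high levels where the cloud is narrower, and *Hk2* is the lowest red point.

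Of the neighbouring genes of the pathway, the remaining isozymes and the enzymes of steps not covered by the 10 genes formed a list of 21. Of these 8 could be tested, 3 were lower (*Tpi1*, *Adpgk* and *Bpgm*), 2 were higher (*Pgam1* and *Aldoc*), 3 were not past the threshold, and 12 had 0 counts in all 4 libraries. *Adpgk*, which phosphorylates glucose with ADP, had 145 and 172 counts in WT and 0 in both KO libraries, at least 102-fold lower. Very large changes were common in these libraries: 2424 of 11657 tested genes had a fitted log2 fold change beyond 6 in either direction. The median log2 fold change of the tested isozymes was 0.02. Over this list and the neighbouring pathway lists that follow, 72 of 87 tested genes were past the threshold, 34 as higher and 38 as lower. Among all tested genes 78.2% passed, 37.1% as higher and 41.1% as lower, so calls in both directions were common outside these lists too. Whether the calls of any list differed from those of all genes was not tested.

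Among 6 tested glucose and lactate carriers, 3 were higher and 2 lower. *Slc2a3*, the glucose transporter GLUT3, fell from 71 and 61 counts to 16 and 15 (log2 fold change -2.03, standard error 0.34, adjusted p = 5.96e-07, edgeR), whereas *Slc2a1*, the transporter GLUT1, was at 10.9 ± 1.74 CPM in WT and 12.6 ± 0.50 in KO (adjusted p = 0.417). *Bsg*, the basigin chain that carries lactate transporters to the membrane, fell from 208 ± 15.3 to 85.8 ± 6.99 CPM (log2 fold change -1.27, adjusted p = 1.90e-17). *Slc16a1*, the lactate transporter MCT1, rose from 10.6 ± 1.10 to 19.5 ± 4.86 CPM (log2 fold change 0.88, adjusted p = 0.000192). *Slc2a3*, which lies below the level set for naming genes, and *Slc2a1*, which was not past the threshold, were chosen after their values were seen. So were *Bpgm* and the *Pfkfb* and *Tigar* genes that follow. Among 4 tested genes for enzymes of fructose 2,6-bisphosphate, the activator of phosphofructokinase, *Pfkfb3* and *Pfkfb4* were higher and *Pfkfb2* and *Tigar* lower. *Pfkfb2* had 136 and 114 counts in WT and 0 in KO (at least 80.4-fold lower). *Pfkfb3* had 0 counts in WT and 141 and 134 in KO (at least 95.2-fold higher).

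The transcriptional regulators of the pathway also went both ways, with 6 higher and 5 lower of 12 tested. Calls over all tested genes were split as well, at 37.1% higher and 41.1% lower. *Myc*, which activates many glycolytic genes, fell from 269 ± 21.1 to 72.4 ± 6.71 CPM (log2 fold change -1.89, standard error 0.09, adjusted p = 1.44e-23, edgeR). *Usf2*, an E-box binding factor, fell by 3.03 on the log2 scale (adjusted p = 1.21e-16). *Mlx*, the partner of the glucose-sensing factors, and *Egln1*, a prolyl hydroxylase that marks HIF1A for degradation, rose by 2.46 and 2.81 (adjusted p = 6.41e-17 and 5.52e-18). *Hif1a* itself, also chosen after its values were seen, was at 104 ± 1.58 CPM in WT and 95.2 ± 3.60 in KO and was not past the threshold (log2 fold change -0.13, adjusted p = 0.183). Of 10 tested targets of hypoxia-inducible factors outside glycolysis, 6 were higher, 2 lower and 2 not past the threshold. The higher genes included *Bnip3*, a receptor of mitophagy, at a log2 difference of 2.90 and *Adm*, the hormone adrenomedullin, at 1.43 (adjusted p = 8.73e-21 and 1.44e-17). The 2 lower genes, *Ero1l* and *Ddit4*, fell by 3.20 and 1.86 (adjusted p = 5.34e-10 and 5.68e-06). Both lie below the level set for naming genes and were added after their values were seen. The median log2 fold change over the 10 tested targets was 0.67. The part of these factors in the changes of the glycolytic genes was not tested.

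Beyond pyruvate, 5 of 12 tested genes of pyruvate entry into mitochondria were higher and 6 lower. *Pdk1*, a kinase that inhibits pyruvate dehydrogenase, fell from 42.6 ± 2.45 to 5.13 ± 1.16 CPM (log2 fold change -3.06, adjusted p = 3.37e-19, edgeR), and the opposing phosphatase gene *Pdp2* rose by 1.88 (adjusted p = 1.32e-11). The second phosphatase gene, *Pdp1*, had 0 counts in WT and 185 and 154 in KO, at least 117-fold higher. In the pentose phosphate pathway, which branches off at glucose 6-phosphate, 4 of 7 tested genes were lower and 2 higher. *G6pdx*, its first enzyme, had 210 and 226 counts in WT and 2 and 3 in KO (log2 fold change -6.32, standard error 0.35, adjusted p = 2.53e-21). *Pgls* and *Tkt* fell by 1.32 and 1.22, and *Rpia* rose by 2.81 (adjusted p = 1.42e-13, 1.26e-10 and 1.46e-13). In the citric acid cycle 9 of 16 tested genes were lower and 4 higher, with a median log2 fold change of -0.31. *Suclg1* fell by 1.13, while *Suclg2* and *Idh3b* rose by 1.16 and 1.09 (adjusted p = 5.65e-17, 9.44e-13 and 7.65e-14). In the list of gluconeogenesis and glycogen, 4 of 12 tested genes were higher and 5 lower, and *Gyg*, the primer of glycogen synthesis, rose by 1.76 (adjusted p = 1.14e-18).

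**Figure D5:**
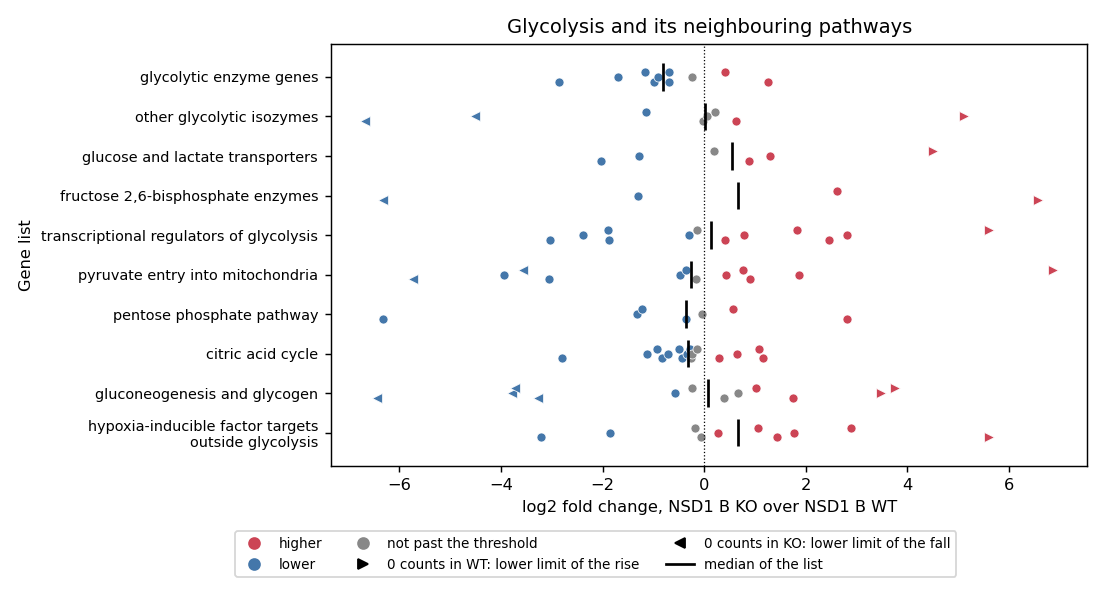
Log2 fold change of KO over WT for the tested genes of glycolysis and 9 neighbouring lists, colored by whether a gene was higher, lower or not past the threshold, with black lines for list medians. Triangles are genes that 1 genotype did not show at all (0 counts), drawn at the lower limit of their change. The glycolytic enzyme genes sit mostly left of 0 (median -0.80), with *Pfkl* and *Pkm* to the right. The other lists also hold genes on both sides. In the citric acid cycle 12 of 16 genes, and in the pentose phosphate pathway 5 of 7, lie left of 0.

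The promoters of 4 genes that were lower in KO, *Hk2*, *Gapdh*, *Pgk1* and *Ldha*, are shown as examples. They were picked because their windows hold short motifs linked to this pathway, so the motifs shown follow from that choice. The 4 windows were taken from RefSeq starts on GRCm38.p6 and cover 250 bases before the start. They are written 5′ to 3′ on the strand of the gene and do not overlap an annotated exon. Capitals mark ACGTG or GCGTG on either strand, the core that hypoxia-inducible factors bind. The windows lie at chr6:82774455-82774704 for *Hk2* (minus strand), chr6:125165774-125166023 for *Gapdh* (minus), chrX:106186850-106187099 for *Pgk1* (plus) and chr7:46845554-46845803 for *Ldha* (plus).
Hk2: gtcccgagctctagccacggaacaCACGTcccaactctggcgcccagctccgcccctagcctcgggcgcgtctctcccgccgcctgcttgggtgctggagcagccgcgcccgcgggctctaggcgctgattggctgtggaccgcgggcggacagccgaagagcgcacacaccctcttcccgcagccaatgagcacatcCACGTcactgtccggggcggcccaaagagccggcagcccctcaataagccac
Gapdh: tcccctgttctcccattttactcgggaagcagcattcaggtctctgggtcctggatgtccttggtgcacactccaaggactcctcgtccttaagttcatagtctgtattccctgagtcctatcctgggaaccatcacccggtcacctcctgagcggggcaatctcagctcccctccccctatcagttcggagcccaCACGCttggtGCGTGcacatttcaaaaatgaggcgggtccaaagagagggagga
Pgk1: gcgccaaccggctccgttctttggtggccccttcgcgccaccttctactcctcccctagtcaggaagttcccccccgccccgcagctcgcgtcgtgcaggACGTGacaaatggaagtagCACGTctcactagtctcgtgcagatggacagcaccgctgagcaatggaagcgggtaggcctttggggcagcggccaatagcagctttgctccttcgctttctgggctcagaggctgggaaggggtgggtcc
Ldha: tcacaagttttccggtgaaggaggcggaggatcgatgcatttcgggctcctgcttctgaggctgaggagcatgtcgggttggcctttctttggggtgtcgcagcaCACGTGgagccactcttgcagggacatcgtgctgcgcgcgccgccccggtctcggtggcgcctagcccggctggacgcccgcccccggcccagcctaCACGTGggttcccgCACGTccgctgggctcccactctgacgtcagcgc

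Such capitals form 2 stretches in *Hk2*, *Gapdh* and *Pgk1* and 3 in *Ldha*. The 10 genes have 17 windows of this kind in RefSeq, of which some overlap, and 13 windows from 9 genes held ACGTG or GCGTG. Over all 32851 windows of the same length 38.6% did. The exception was *Gpi1*, which fell as well, and the window of *Pfkl*, which rose, held 1 such stretch. The E-box CACGTG, which contains ACGTG on both strands, occurred in *Ldha*, with 2 copies, and in 6.02% of all windows. The GC box GGGCGG was found in 9 of the 17 windows, from 7 genes, and in 32.7% of all windows. Windows of the 10 genes had 49.6% to 71.2% GC, where the median of all windows was 52.4%. A match of letters is a description and not a measured binding site.

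On GRCm38 (mm10) these genes lie on 6 chromosomes in the GENCODE M21 annotation, and the counts cover their exons. *Hk2* (82725025 to 82774454) and *Gapdh* (125161715 to 125166467) are on the minus strand of chromosome 6. *Gpi1* (34201330 to 34230336, minus), *Ldha* (46841475 to 46855627, plus) and *Aldoa* (126795234 to 126800751, minus) are on chromosome 7. *Hk1* (62268855 to 62379908) and *Pfkl* (77986947 to 78010083) are on the minus strand of chromosome 10. *Eno1* is on chromosome 4 (150236721 to 150248879), *Pkm* on chromosome 9 (59656368 to 59679375) and *Pgk1* on the X chromosome (106187100 to 106203699), all on the plus strand.

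Several of these genes have processed copies in the genome, and reads can be split between a gene and its copies. GENCODE M21 holds 127 genes outside *Gapdh* with at least 95% identity to its transcripts over at least 200 nt. Together these copies had 106 and 134 counts in WT and 61 and 63 in KO, far fewer than *Gapdh* itself. The 1 copy of *Gpi1*, Gm1840, is 98.66% identical over 1046 nt and had 19 and 18 counts in WT and 1 in each KO library, which is the direction of *Gpi1*. *Eno1b* (99.48% identical to *Eno1*) had 25 counts in each WT library and 30 and 26 in KO. *Hk1*, *Hk2* and *Pfkl* had no such copy. Adding the copies to their genes, an alternative chosen after the data were seen, left the median log2 fold change at -0.80 and 9 of 10 genes past the threshold. Reads aligned to more than 1 place, 11.2% to 13.2% of the counted reads of a library, were in no gene's count. The counts on the copies, and adding them, therefore cannot show how many reads a gene lost to its copies.

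Exons of other genes overlap 741 bp of *Gpi1*, 157 bp of *Hk1*, 68 bp of *Gapdh* and 25 bp of *Aldoa* on the opposite strand and 767 bp of *Pkm* on the same strand. The strand setting of the counting is not given in the sources used here, so counts of these stretches are uncertain. The partner of *Gapdh*, *Iffo1*, had 0 counts in WT and 49 and 39 in KO, and that of *Aldoa*, *Fam57b*, had 227 and 209 in WT and 121 and 90 in KO.

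Markers of other cells moved with the genotype. In bulk RNA, fewer cells of a type and less RNA per cell cannot be told apart. Summed CPM of 7 erythroid markers was 35.6 to 39.6 in WT and 1690 to 1944 in KO, with all 5 tested markers higher, *Klf1* at 0 counts in all libraries, and the red-cell enzyme *Pklr* at 0 as well. For 8 T cell markers the sum was 892 to 894 in WT and 123 to 126 in KO, with *Cd4* and *Cd8a* at 0. *Cd2* alone was at 837 and 833 CPM in WT and 60.6 and 63.3 in KO, so the fall of this sum was mainly that of *Cd2*. Of 5 tested T cell markers 2 were higher (*Cd3d* and *Cd3g*) and 3 lower (*Cd2*, *Trac* and *Lck*). The 9 myeloid markers summed to 4605 to 4709 CPM in WT and 5811 to 6157 in KO, with 6 of 8 tested higher and 2 lower. The 6 natural killer cell markers (55.8 to 59.6 against 101 to 102 CPM, 3 of 4 tested higher and 1 lower, *Ncr1* and *Gzma* at 0), the 5 plasmacytoid dendritic cell markers (9288 to 10170 against 9782 to 9802 CPM, 1 of 2 higher, *Siglech* at 0) and the 4 platelet markers (154 to 167 against 223 to 232 CPM, the 1 tested higher, *Itga2b* at 0) were also counted, and of these sums only that of the plasmacytoid dendritic cell markers overlapped between the genotypes. The 8 B cell markers summed to 12710 to 12940 CPM in WT and 11200 to 12210 in KO. For 5 plasma cell markers the sums were 249.5 to 273 and 198 to 212 CPM, with 1 of 4 tested higher and 2 lower and *Sdc1* at 0. The 9 proliferation genes summed to 282 to 291 and 249.5 to 269.5 CPM, with 5 of 7 tested lower and *Mki67* and *Top2a* at 0 in KO, and the 5 germinal center genes to 36.5 to 40.6 and 13.5 to 15.7 CPM, with 2 of 3 lower and 1 higher. The part of these shifts in the changes of the glycolytic genes was not tested.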

How the data were processed

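B220+ B cells sorted from the spleen were sequenced as 4 libraries, 2 per genotype, which were grouped by their labels. The files deposited by the authors hold raw counts, 1 whole number for each gene in each library. Per the methods and the processing notes, paired-end reads of 150 nt were mapped to mm10 with Bowtie2. The notes also name Cufflinks, whose values were not used here. How reads were counted, with which strand setting and annotation, is not given in the sources used here. Lines that name no gene (44.3% to 44.6% of the counted reads on no feature, 2.21% to 2.41% ambiguous, 11.2% to 13.2% not unique) stayed out of library sizes.

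Of 55401 identifiers 99.5% matched GENCODE M21 (mm10), without the version, for positions, exon lengths and overlaps. Counts on genes were 6952351 and 7134170 (NSD1 B WT) and 7566834 and 6769118 (NSD1 B KO). Genes were kept by filterByExpr (minimum count 10, minimum total 15), scaled by TMM and tested with the quasi-likelihood test of edgeR 4.0.16 (R 4.3.3), adjusted by the Benjamini-Hochberg method over 11657 genes. The standard error is the log2 fold change divided by the square root of F. The coefficient of variation between libraries beyond counting error was 7.35%, and mean chi-square values between libraries of a genotype were 3.02 and 3.91, so the libraries of a genotype differed by more than counting error, which does not show whether they came from different mice. A genotype at 0 counts was set to 3 counts over its libraries. Copies were searched in GENCODE M21 transcripts with blastn 2.17.0, and promoters come from RefSeq (GRCm38.p6).

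Alternatives were DESeq2 1.42.0, limma-voom (limma 3.58.1), other scalings, filters and thresholds, immunoglobulin or mitochondrial genes left out, each library left out, the replicate block, a loess trend (span 0.5) with exon length and GC content, and copies added to their genes. The procedure was tested on simulated data. The glycolytic genes, the neighbouring lists and the marker lists were chosen with earlier results of these data known. Genes named beyond the glycolytic ones are isozymes of their steps, *Nsd1*, list markers, and up to 4 genes per neighbouring list past the threshold with the largest change and a mean of at least 10 CPM, with exceptions stated where they appear. Some genes that these rules would name are not reported here.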

Additional observations from a re-analysis of the deposited data

How the results depend on the processing

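The 10 glycolytic genes were refitted under 17 alternatives, which gave 170 values. Of these 157 kept their direction and side of the threshold, 6 lost the call, 5 gained it and 2 reversed. *Hk2*, *Gpi1*, *Pfkl*, *Aldoa*, *Gapdh*, *Pgk1* and *Ldha* kept theirs throughout. *Eno1* reversed with the trend in exon length and GC content removed, to 0.25 without and 0.25 with the replicate block, and was past the threshold as lower by library size alone (-0.32), by upper quartile scaling (-0.28), with at least 1 CPM in all 4 libraries (-0.28), without WT replicate 2 (-0.30) and without KO replicate 1 (-0.37). The median of the 10 genes lay between -0.95 and -0.75 with each library left out, and moved to -0.56 with the trend removed, with or without the block, where the median of all tested genes moved from -0.10 to 0.02. The cause was not tested. The count of tested genes past the threshold fell from 9119 to 5846 under the filter of 1 CPM in every library, which left 8334 genes to test. Under the other alternatives 8 to 10 of the 10 genes passed, and 6, all lower, passed an adjusted p below 1e-05 with an absolute log2 fold change above 0.5. The replicate numbers are not known to pair the libraries (correlation of the differences between replicates 0.065), and with the replicate block 9 of the 10 genes and 8960 of all genes passed. Depth limits *Pfkl* and *Hk2* most, with 20 to 39 counts in their lower libraries.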
